A study of Mus musculus with 2 samples.

Results

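The miR-106b-25 and miR-106a-363 clusters are groups of microRNA hairpins that resemble the miR-17-92 cluster in sequence and order. Their 9 genes were taken by symbol from the 2202 microRNA genes counted, with 3 in miR-106b-25 (Mir106b, Mir93 and Mir25) and 6 in miR-106a-363 (Mir106a, Mir18b, Mir20b, Mir19b-2, Mir92-2 and Mir363). All 9 were in the tables. Small RNA under 30 nt was sequenced from the gastrocnemius, a calf muscle, of 14-day-old male mice of the cross B6CASTF1/J (C57BL/6 by CAST/EiJ). There was 1 group of 2 biological replicates with 1 library each, and no treatment, second genotype or second tissue. The labels mention several males, give both samples the same donor identifier and do not say whether a replicate was 1 animal or a pool. Spreads and p-values therefore describe these 2 samples, and may be partly technical.

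MicroRNAs bind messenger RNAs mainly through the seed, bases 2 to 8 of the mature strand, and lower their translation or stability. The 3 clusters derive from an ancestral cluster by duplication and encode 4 seed families, named here miR-17, miR-18, miR-19 and miR-92. MicroRNAs with the miR-17 seed are known to repress the cell cycle inhibitor Cdkn1a, and miR-25 and miR-92a repress the pro-apoptotic Bcl2l11. In mice, loss of miR-17-92 is lethal around birth, while mice that lack either paralog cluster alone are viable. Mcm7, which hosts miR-106b-25, encodes a subunit of the helicase that unwinds DNA at replication, and its transcription is driven by E2F factors in dividing cells.

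The mature sequences of the members are shown because they define which reads can be told apart. They are from RefSeq (GRCm38.p6, the same assembly as mm10), are written 5′ to 3′, and have the seed in capitals. The arm printed is the one usually reported as the abundant strand; the counts are per hairpin and do not separate the arms. Members with the miR-17 seed come first, with Mir17 and Mir20a of miR-17-92 beside them.
miR-106b-5p of Mir106b: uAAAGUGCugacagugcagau
miR-93-5p of Mir93: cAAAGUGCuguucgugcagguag
miR-106a-5p of Mir106a: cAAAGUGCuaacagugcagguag
miR-20b-5p of Mir20b: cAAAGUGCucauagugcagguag
miR-17-5p of Mir17: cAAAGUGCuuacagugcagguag
miR-20a-5p of Mir20a: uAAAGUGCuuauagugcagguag

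The miR-92 seed was carried by Mir25, Mir92-2 and Mir363, the miR-18 seed by Mir18b and the miR-19 seed by Mir19b-2. Mir18, which encodes miR-18a in miR-17-92, is shown beside Mir18b.
miR-25-3p of Mir25: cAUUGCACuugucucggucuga
miR-92a-3p of Mir92-2 and Mir92-1: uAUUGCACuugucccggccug
miR-363-3p of Mir363: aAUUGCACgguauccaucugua
miR-18b-5p of Mir18b: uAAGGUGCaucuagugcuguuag
miR-18a-5p of Mir18: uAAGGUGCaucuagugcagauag
miR-19b-3p of Mir19b-2 and Mir19b-1: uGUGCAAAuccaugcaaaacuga

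Distances between these sequences were counted from the 5′ end over the length both have. The sequence of miR-106a-5p had 1 mismatch to miR-17-5p, and miR-20b-5p had 2 mismatches to miR-20a-5p. The sequence of miR-18b-5p had 2 mismatches to miR-18a-5p. The sequence of miR-363-3p was far from that of miR-17-92, with 11 mismatches to miR-92a-3p. In miR-106b-25 there were 3 mismatches between miR-106b-5p and miR-17-5p, 4 between miR-93-5p and miR-17-5p, and 3 between miR-25-3p and miR-92a-3p. The mature miR-19b-3p and miR-92a-3p had 0 mismatches between the X-linked locus and the locus in miR-17-92. For the other 7 members, 0 other microRNA genes of the table held the whole mature sequence in their hairpin. Multi-mapping reads went into no gene's count, and they were 44.0% of the reads of replicate 1 and 52.1% of those of replicate 2. The counts of Mir19b-2 and Mir92-2, and of Mir19b-1 and Mir92-1, thus leave out an unknown number of reads.

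The miR-106b-25 hairpins lie on chromosome 5, minus strand, within 498 bases of mm10, in intron 13 of the 15-exon principal Mcm7 transcript. Mir106b is at 138165737 to 138165818 (ENSMUSG00000065514.1), Mir93 at 138165523 to 138165610 (ENSMUSG00000065527.1) and Mir25 at 138165321 to 138165404 (ENSMUSG00000065394.1). Mir93 and Mir25 also lie in exon 1 of an Mcm7 transcript annotated as a retained intron. The miR-106a-363 hairpins span 875 bases of the X chromosome, also on the minus strand. Mir106a is at 52742503 to 52742567 (ENSMUSG00000065456.1) and overlaps the last exon of the noncoding transcripts of Kis2 by 3 or 5 bases. Mir18b follows at 52742331 to 52742413 (ENSMUSG00000077111.2), Mir20b at 52742113 to 52742192 (ENSMUSG00000076041.1) and Mir19b-2 at 52741983 to 52742066 (ENSMUSG00000065473.1). Mir92-2 is at 52741838 to 52741928 (ENSMUSG00000065613.1) and Mir363 at 52741693 to 52741767 (ENSMUSG00000070106.1). None of these 5 overlaps another annotated gene's transcript.

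**Figure D1:**
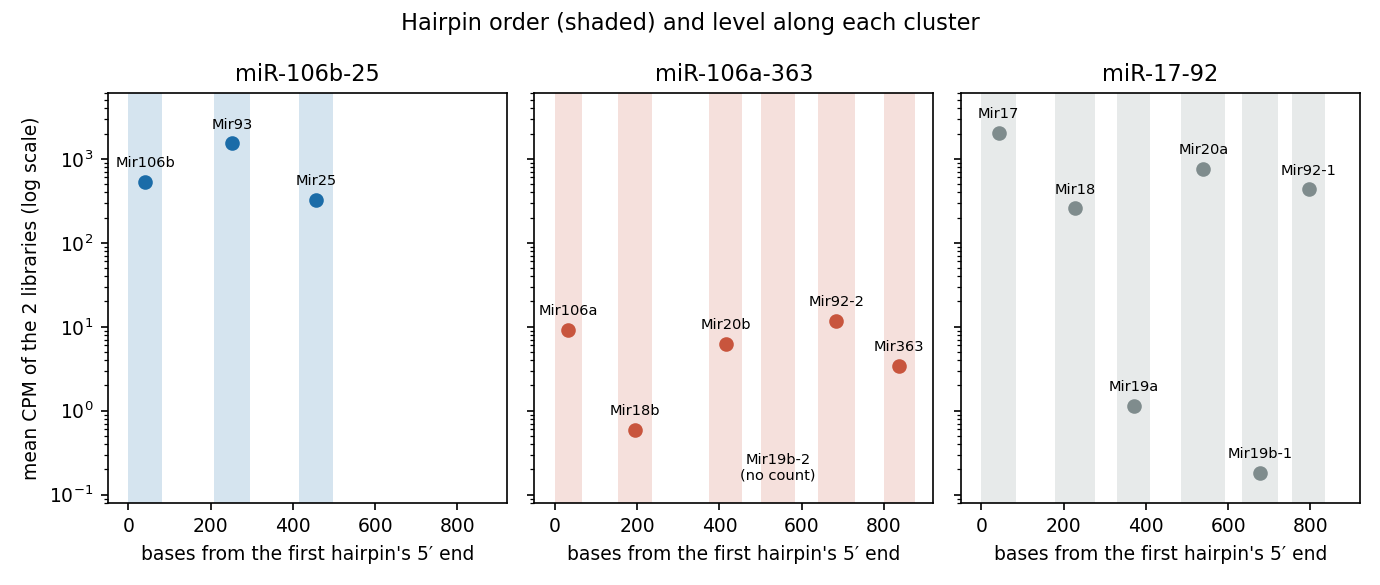
Mean level of each microRNA gene over both libraries (CPM, log scale) against the distance in bases from the 5′ end of the first hairpin of its cluster; shaded bands are the annotated hairpins. The 3 genes of miR-106b-25 lie between 326 and 1523 CPM, and the 5 genes of miR-106a-363 with a count at or below 11.8 CPM.

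Own-strand counts of all microRNA genes summed to 2743657 in replicate 1 and 2211254 in replicate 2, and CPM (counts-per-million) is scaled to these totals. Hairpins give mature strands of nearly equal length, so CPM was not divided by length. A count of 0 was taken to allow a level of up to 3 counts, or 1.09 CPM (replicate 1) and 1.36 CPM (replicate 2). Intervals are 95% exact (Clopper-Pearson) intervals, which are two-sided and for a count of 0 reach higher, to 1.34 and 1.67 CPM. Like the limit of 3 counts, they cover counting error only, since PCR copies are not independent molecules. Of 9 skeletal muscle microRNA genes, 9 had a count, and they summed to 69535 and 69214 CPM, led by Mir206 at 68288 and 67909 CPM. The sum thus mostly follows Mir206. The 5 leukocyte genes summed to 1546 and 1549 CPM, led by Mir146 at 569 and 501 CPM. The 4 liver and gut genes summed to 140 and 159 CPM, led by Mir122 at 108 and 132 CPM. Smooth muscle genes summed to 36704 and 34921 CPM, led by Mir143, with no count for Mir145b of the 3. All these marker values leave out multi-mapping reads, so the order within a list is that of assigned counts. Which marker genes share a mature sequence was not analysed here.

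In assigned counts the chromosome 5 cluster stood well above the X-linked cluster. Together the 3 genes of miR-106b-25 had 6226 counts in replicate 1 (2269 CPM, interval 2213 to 2326) and 5515 in replicate 2 (2494 CPM, 2429 to 2561). The 6 genes of miR-106a-363 had 75 counts in replicate 1 (27.3 CPM, 21.5 to 34.3) and 78 in replicate 2 (35.3 CPM, 27.9 to 44.0). The summed count of miR-106b-25 was thus 83.0 times that of miR-106a-363 in replicate 1 (66.1 to 106) and 70.7 times in replicate 2 (56.6 to 89.6). With Mir92-2, Mir19b-2 and their copies in miR-17-92 left out, the mean ratio was 124, against 76.9 ± 8.70 (SD, n = 2) with all genes. The libraries were on the same side with wide separation, since every gene of miR-106b-25 was above every gene of miR-106a-363 in each library.

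Mir93, the middle hairpin, was the highest member, at 1365 CPM (replicate 1) and 1681 CPM (replicate 2), and ranked 62 of all 2202 genes by mean CPM. Mir106b followed at 553 and 512 CPM, rank 102, and Mir25 at 351 and 301 CPM, rank 118. The ranges of these 3 genes over the libraries did not overlap, and their order was the same in both. The most abundant member was the second hairpin of the transcript and not the first. Mir93 made up 60.2% of the cluster's counts in replicate 1 (interval 58.9 to 61.4) and 67.4% in replicate 2 (66.1 to 68.6). Mir106b made up 24.4% and 20.5%, and Mir25 15.5% and 12.1%.

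The genes nearest to Mir93 in level, by the difference in mean log2(CPM + 1) over the 2 libraries, were Mir676 (0.02), Mir140 (0.07), known from cartilage, and Mir298 (0.08). Their CPM in replicates 1 and 2 were 1532 and 1543 for Mir676, 1490 and 1395 for Mir140, and 1537 and 1661 for Mir298. A likeness in level over 2 samples says nothing of how the genes vary across conditions.

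**Figure D2:**
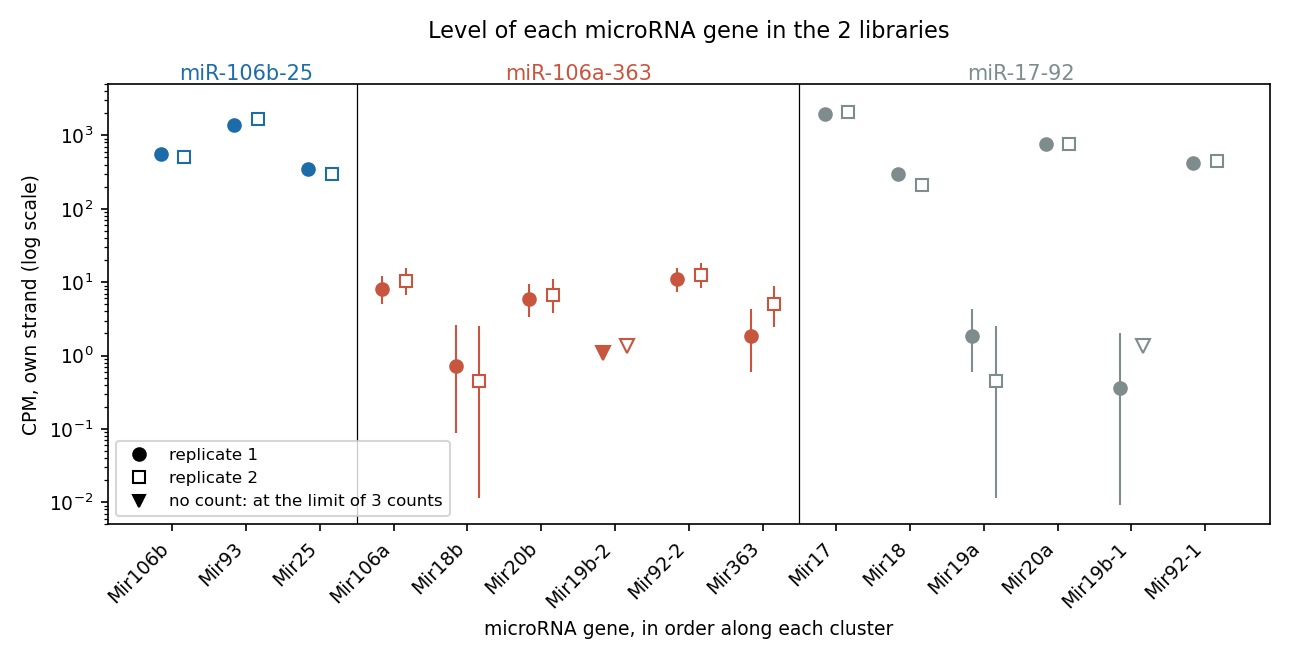
CPM (log scale) of each gene of both clusters and of miR-17-92 in replicate 1 (filled) and replicate 2 (open), with 95% exact intervals of the counts; triangles stand at the limit of 3 counts for genes with no count. Mir93, Mir106b and Mir25 stand between 301 and 1681 CPM, and no gene of miR-106a-363 is above 12.7 CPM.

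Within miR-106a-363 the levels were low throughout. Mir92-2, which encodes miR-92a, had 30 counts in replicate 1 (10.9 CPM, interval 7.38 to 15.6) and 28 in replicate 2 (12.7 CPM, 8.41 to 18.3). Mir106a, a member with the miR-17 seed, had 22 counts (8.02 CPM, 5.03 to 12.1) and 23 counts (10.4 CPM, 6.59 to 15.6). Mir20b, with the same seed, had 16 counts (5.83 CPM, 3.33 to 9.47) and 15 counts (6.78 CPM, 3.80 to 11.2). In each library these 3 intervals overlapped. The order of the 3 genes was the same in both libraries, and the differences between them were not tested.

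Mir363, the last hairpin, had 5 counts in replicate 1 (1.82 CPM, 0.592 to 4.25) and 11 in replicate 2 (4.97 CPM, 2.48 to 8.90). Mir18b had 2 and 1 counts, fewer than the 3 that a count of 0 allows, and Mir19b-2 had 0 in both. The interval of Mir363 overlapped those of Mir20b and Mir18b, the genes next to it in level within the cluster, in each library. In replicate 2 the overlap with Mir18b was slight, as its interval ended at 2.52 CPM, and these differences were not tested. The zero count of Mir19b-2 stands beside its mature sequence being identical at Mir19b-1, as printed above, so it does not show that the locus is silent.

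Among the 142 microRNA genes on the X chromosome, which male cells carry in a single copy, 26 reached 10 CPM in both libraries, and Mir92-2 ranked 26 by mean CPM. The nearest other microRNA gene to the cluster, Mir450b at a distance of 305 kb, stood at 161 and 180 CPM. The genes nearest to Mir92-2 in mean log2(CPM + 1) were Mir1a-1 (difference 0.02, at 14.9 and 9.50 CPM), Mir1188 (0.03, at 11.7 and 11.3 CPM) and Mir92b (0.04, at 5.10 and 24.4 CPM). All of these levels, that of Mir92-2 included, leave out multi-mapping reads. Mir92b also carries the miR-92 seed.

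Counts in at least 1 library were found for 8 of the 9 members, against 28.6% of all genes in the table. A level of 10 CPM in both libraries was reached by 4 of the 9 (Mir93, Mir106b, Mir25 and Mir92-2), against 11.7% of all genes. All 9 had no count on the opposite strand in either library, so that reads on either strand gave the same counts.

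The clusters were then set beside miR-17-92, which lies on chromosome 14 in an exon of the noncoding Mir17hg and is known as a driver of cell proliferation. The 6 genes of miR-17-92 had 9496 counts in replicate 1 (3461 CPM) and 7794 in replicate 2 (3525 CPM). The summed count of miR-106b-25 was 0.656 times that of miR-17-92 in replicate 1 (interval 0.635 to 0.677) and 0.708 times in replicate 2 (0.683 to 0.733). The summed count of miR-106a-363 was 0.00790 times that of miR-17-92 in replicate 1 (0.00621 to 0.00991) and 0.0100 times in replicate 2 (0.00790 to 0.0125). Of all counts of the 3 clusters, miR-106b-25 thus held 39.4% and 41.2%, miR-106a-363 0.475% and 0.583%, and miR-17-92 60.1% and 58.2%.

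Position by position, Mir106a, Mir18b, Mir20b and Mir92-2 each stood at a small percentage of their counterparts in miR-17-92. Mir106a was at 0.404% of Mir17 in replicate 1 (interval 0.253 to 0.612) and 0.496% in replicate 2 (0.314 to 0.745). Mir20b was at 0.770% of Mir20a in replicate 1 (0.439 to 1.25) and 0.887% in replicate 2 (0.495 to 1.47). Mir17 itself stood at 1985 and 2098 CPM and Mir20a at 757 and 765 CPM, so the counterparts differ by far more than the spread between the libraries.

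Mir18b was at 0.244% of Mir18 in replicate 1 (0.0295 to 0.885) and 0.211% in replicate 2 (0.00534 to 1.18). Mir92-2 was at 2.62% of Mir92-1 in replicate 1 (1.76 to 3.75) and 2.83% in replicate 2 (1.87 to 4.12), with intervals above those of the other counterparts. Both genes lose reads shared between their identical mature sequences. Mir18 stood at 299 and 214 CPM and Mir92-1 at 418 and 447 CPM. The miR-106a-5p and miR-17-5p sequences differ by 1 base while Mir17 had 5446 and 4640 counts, and whether miscalled bases in miR-17 reads add to the 22 and 23 counts of Mir106a was not tested.

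The miR-19 hairpins were near zero in every cluster that has one. Mir19b-2 had 0 counts in both libraries, against 1 and 0 for Mir19b-1 and 5 and 1 for Mir19a. Mir19a and Mir19b-1 lie in the same transcript as Mir18, Mir20a and Mir92-1. The mature miR-19a-3p differs from miR-19b-3p by 1 mismatch and was held whole by 0 other microRNA genes of the table, and matches elsewhere in the genome were not analysed here. The cause of its low count was not tested.

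By seed, the genes of miR-106b-25 held a large part of the counts of 2 families. Each gene's whole hairpin count was placed in its seed family, so reads of the arm without that seed are not separated out. The intervals of the shares do not cover this. The table held 7 genes with the miR-17 seed, with a summed level of 4674 CPM (replicate 1) and 5074 CPM (replicate 2). Of these counts Mir93 and Mir106b held 41.0% in replicate 1 (interval 40.2 to 41.9) and 43.2% in replicate 2 (42.3 to 44.1). Mir106a and Mir20b held 0.296% (0.210 to 0.406) and 0.339% (0.240 to 0.465), and Mir17 and Mir20a held 58.7% and 56.4%. The remaining gene with this seed, Mir6383, had no count.

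**Figure D3:**
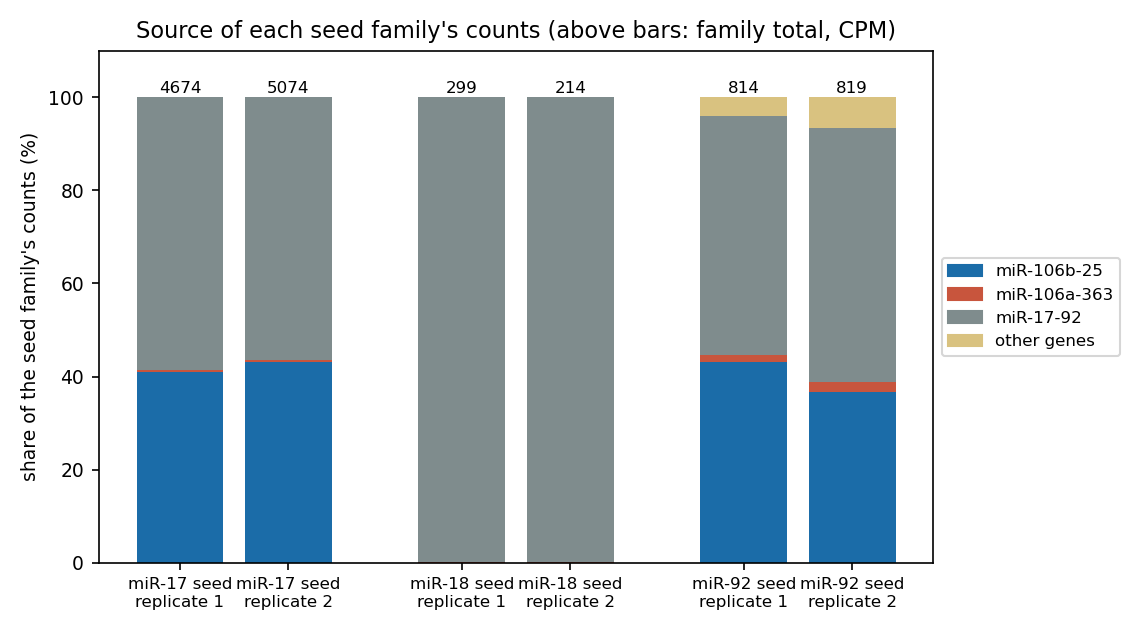
Share of the counts of each seed family (percent, y axis) that came from miR-106b-25, miR-106a-363, miR-17-92 and other genes, for replicates 1 and 2; the number above each bar is the family's summed CPM. In the miR-17 family miR-106b-25 holds 41.0% and 43.2%, and in the miR-18 family nearly all counts are from miR-17-92. Counts are per hairpin and do not separate the arms.

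The miR-92 seed was found in 7 genes, which summed to 814 and 819 CPM. Mir25 alone held 43.1% of these counts in replicate 1 (41.1 to 45.2) and 36.7% in replicate 2 (34.5 to 39.0). Mir92-2 and Mir363 together held 1.57% (1.09 to 2.17) and 2.15% (1.54 to 2.93). Mir92-1 of miR-17-92 held 51.4% and 54.6%, and the other genes with this seed, Mir32, Mir92b and Mir367, held 3.94% and 6.52%. Mir32 stood at 27.0 and 28.9 CPM and Mir367 had no count. The share of Mir25 is of assigned counts, from which an unknown number of miR-92a reads is missing, as given with the sequences. In the miR-18 family Mir18b held 0.244% (0.0295 to 0.877) and 0.211% (0.00534 to 1.17).

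Whether members differed between the replicates was tested among the 258 genes that reached 10 CPM in both. The test was an exact binomial one, two-sided, on each gene's counts with library sizes scaled by the trimmed mean of M-values (TMM), Benjamini-Hochberg adjusted over all 258 genes. It takes only counting error into account and sets library against library. It called 3 of the 4 tested members, beside 50.8% of all genes tested, so being called does not set a member apart. Mir106b and Mir25 were higher in replicate 1, beside 31.8% of all genes, and Mir93 was lower, beside 19.0%. All genes split into 82 higher and 49 lower in replicate 1, and into 66 and 67 with library sizes from total counts.

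Mir93 was lower in replicate 1 than in replicate 2, with 3746 counts against 3717 in the smaller library (1365 and 1681 CPM), and passed the exact binomial test (adjusted p = 2.01e-13). Its log2 ratio was −0.25 with TMM sizes, the scale of the test, and −0.30 from the CPM printed here, which are scaled to total counts. Mir25, with 963 and 665 counts (351 and 301 CPM), had a log2 ratio of 0.27 with TMM sizes (adjusted p = 0.000586, exact binomial test) and of 0.22 from total counts. Mir106b, with 1517 and 1133 counts (553 and 512 CPM), had a log2 ratio of 0.16 with TMM sizes (adjusted p = 0.0133, exact binomial test). With library sizes from total counts its log2 ratio was 0.11 and the call was lost (exact binomial test, adjusted p = 0.0951), as it was with DESeq2 size factors (0.0676) and with reads on either strand (0.0568), and over all alternatives its adjusted p ran between 0.0101 and 0.995. Mir92-2 had a log2 ratio of −0.15 with TMM sizes and was not called (exact binomial test, adjusted p = 0.785). The other 5 members were below 10 CPM in at least 1 library and were not tested.

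Differences of this size were common between the libraries. The median absolute log2 ratio of all genes tested was 0.18, and 92 of the 258 had a larger one than Mir93. Among the 61 tested genes more abundant than Mir93, 12 had a larger absolute log2 ratio, all 12 of them higher in replicate 1, and 0 had a more negative one; this count was made after the values were seen. The median log2 ratio was 0.16 over the 3 genes of miR-106b-25, which is the value of Mir106b, beside 0.04 over all genes tested. The cluster's summed level, scaled to total counts, was lower in replicate 1, at 2269 CPM against 2494 CPM in replicate 2. The common biological coefficient of variation between the libraries was 12.8%. That coefficient comes from the same libraries, so edgeR's exact test with it is bound to call few genes. It called 0 of the 4 members and 3 of all 258 genes, with 0 members and 15 genes at an unadjusted p under 0.05, and says nothing of whether the members' differences are stable. In bulk tissue, fewer cells of a type and less RNA per cell cannot be told apart. Marker sums also differed between replicates 1 and 2, at 4825 and 3781 CPM for 4 fibroblast genes led by Mir214, 98088 and 80434 CPM for 2 endothelial genes led by Mir126a, 384 and 571 CPM for 2 erythroid genes led by Mir451a, and 944 and 1099 CPM for 11 neuron genes led by Mir128-1. In the neuron list 6 of 11 had a count, with none for Mir124a-1, Mir124a-2, Mir124a-3, Mir9-1 and Mir9-2. Mir128-1 alone stood at 670 and 770 CPM, so the neuron sum mostly follows that gene. Mir214 stood at 4738 and 3708 CPM, Mir126a at 98087 and 80432 CPM and Mir451a at 311 and 464 CPM. The fibroblast, endothelial and erythroid sums thus also mostly follow their leading genes. The other tested fibroblast genes, Mir199b and Mir199a-2, had log2 ratios of 0.57 and −0.02 with TMM sizes. The 5 neuron genes at 10 CPM in both libraries went both ways. Their log2 ratios with TMM sizes were 0.23 for Mir128-2, −0.15 for Mir128-1, −0.77 for Mir138-2, −1.24 for Mir138-1 and −1.64 for Mir137. The 7 skeletal muscle genes at 10 CPM in both libraries also went both ways. Mir499 (0.69), Mir133a-1 (0.24), Mir206 (0.05) and Mir208b (0.05) had positive log2 ratios with TMM sizes. Those of Mir486 (−0.14), Mir1a-2 (−0.52) and Mir133b (−0.54) were negative. The part of the listed cell types in the members' differences was not tested.

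**Figure D4:**
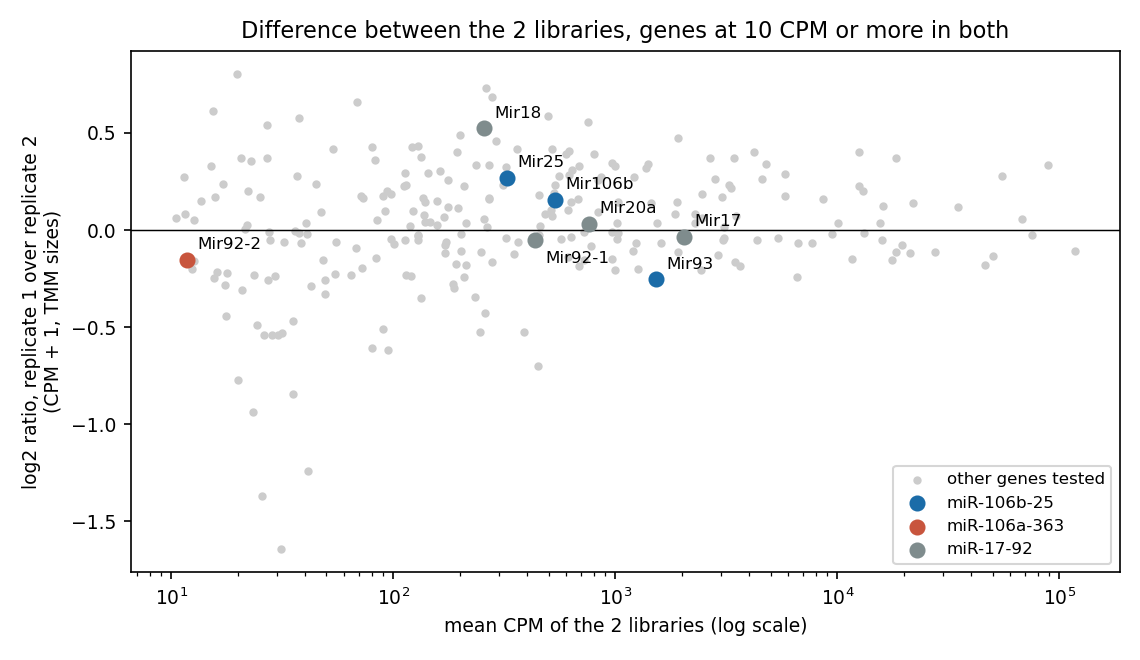
Log2 ratio of replicate 1 over replicate 2 (CPM + 1, TMM sizes) against mean CPM (log scale) for the 258 genes that reached 10 CPM in each library, with the tested genes of the 3 clusters coloured. Mir25 (0.27) and Mir106b (0.16) lie above zero and Mir93 (−0.25) and Mir92-2 (−0.15) below. The 61 genes to the right of Mir93 hold 0 with a more negative ratio, a count made after the values were seen. Of all 258 genes, 92 have a larger absolute log2 ratio than Mir93.

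Genes of 1 transcript can also be compared as a ratio within a library, which needs no library size. The ratio of Mir93 to Mir25 was 3.89 in replicate 1 (interval 3.62 to 4.18) and 5.59 in replicate 2 (5.15 to 6.08). The ratio of Mir106b to Mir93 was higher in replicate 1 than in replicate 2, by 0.41 on the log2 scale. Both of these ratios include Mir93. That of Mir106b to Mir25 was 1.58 in replicate 1 (interval 1.45 to 1.71) and 1.70 in replicate 2 (1.55 to 1.88). The intervals of Mir106b to Mir25 overlapped, and its difference between the libraries was not tested. Both neighbouring pairs of miR-106b-25 differed between the libraries (two-sided Fisher's exact test with Benjamini-Hochberg adjustment over pairs, adjusted p = 3.99e-10 for Mir93 and Mir25 and 2.09e-09 for Mir106b and Mir93). This test was added after the counts were seen. The same test over all 91 pairs of neighbouring microRNA genes within 10000 bases on 1 strand called 46, or 50.5%, so such a change is common between these libraries.

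The log2 change of the ratio was 0.52 in size for Mir93 and Mir25, rank 12 of the 91 pairs, and 0.41 for Mir106b and Mir93, rank 23, beside a median of 0.19. In miR-17-92 the pairs Mir17 with Mir18 (0.56 in size) and Mir18 with Mir20a (0.50) also differed, and Mir20a with Mir92-1 (0.08) did not pass the test (Fisher's exact test, adjusted p = 0.422). Mir18 was the 1 called gene of the 4 tested in miR-17-92, higher in replicate 1 with a log2 ratio of 0.53. Mir17, Mir20a and Mir92-1 had log2 ratios of −0.03, 0.03 and −0.05 and were not called, though with library sizes from total counts Mir17 was called lower in replicate 1 (−0.08, exact binomial test, adjusted p = 0.0127).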

How the data were processed

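The deposited values are whole-number read counts per microRNA gene, 1 table per library, on either strand, the gene's own strand and the opposite strand; the authors made them on mm10 with the M21 annotation, per the labels (build) and the accompanying notes (annotation). The aligner, counter, versions and adapter trimming are not given in the sources used here. The 4 lines that name no gene, 72.7% and 73.0% of reads in replicates 1 and 2, stayed out of totals and tests. All 2202 identifiers matched GENCODE vM21, which gave symbols and positions. Own-strand counts were used. The libraries did not agree within sampling noise (chi-square 77.8 per degree of freedom over 257) and were kept as 2 samples. With 1 group, edgeR's quasi-likelihood test has no contrast, so the exact binomial test was used (SciPy 1.17.1), with TMM sizes from all genes with a count (edgeR 4.0.16, R 4.3.3) at an adjusted threshold of 0.05. DESeq2 1.42.0 gave alternative size factors. The binomial and Fisher tests were tested on simulated data with counting error only. The 2 libraries differ by more than counting error, so the simulation does not cover how the tests behave on them. Members, lists, nearest genes (3 per cluster) and tests were chosen with earlier results of these data known.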

Additional observations from a re-analysis of the deposited data

How the results depend on the processing

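The level of miR-106b-25 (2382 CPM, mean of 2) was 3104 CPM with reads on either strand and 2699 CPM without the most abundant gene in the total, and that of miR-106a-363 (31.3 CPM) was 40.8 CPM with reads on either strand; the members' counts were the same on either strand, so these moves come from the smaller total. With the 4 loci of shared mature sequence left out, the ratio of miR-106b-25 to miR-106a-363 was 124, that of miR-106b-25 to miR-17-92 was 0.778 and that of miR-106a-363 to miR-17-92 was 0.00637, against 76.9, 0.682 and 0.00895. The count of members that differed between the libraries was 3 in the main test and 0 with edgeR's exact test, which takes its dispersion from the same 2 libraries and so is bound to call few genes. The other 22 settings of these cluster levels, ratios and counts stayed within 1 SD or within 1.5 times. Those that leave out a replicate show nothing of stability, since each of 2 values always lies within 1 SD of their mean. Depth limits miR-106a-363, whose 5 genes with a count rest on 1 to 30 counts per library.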
